A study of Mus musculus with 18 samples.

Results

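Keratins are the intermediate filament proteins of epithelial cells. The keratin genes of the mouse molar epithelium were chosen as all genes whose symbol is Krt followed by a number and, in some, a letter. There were 55 such genes: 54 of the 32532 genes at embryonic day 17 (E17) and 50 of the 19450 genes at postnatal day 5 (P5), and none was among the 4841 genes of the table for postnatal day 0 (P0). RNA was sequenced from dental epithelium of mouse molars, wild type (WT) or carrying the DKO genotype, labelled Hmgn1-/-; Hmgn2-/-, which removes a pair of nucleosome-binding proteins. Each genotype had 3 libraries at each of E17, P0 and P5, 18 in all, made from tooth germs whose epithelium had been parted from the mesenchyme with dispase. The labels name no strain or sex, and do not say whether replicates came from separate animals or from pools, so p-values measure only the spread between these libraries.

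A keratin filament is built from pairs of a type I and a type II keratin, and the pair that a cell makes depends on its place and its stage of differentiation. Krt5 and Krt14 form the pair of the basal layer, Krt1 with Krt10 and Krt4 with Krt13 are the pairs of the layers above it in skin and in oral mucosa, and Krt8 with Krt18 is the pair of simple epithelia. Krt6a, Krt6b, Krt16 and Krt17 are induced in wounded or rapidly growing epithelia and mark several appendages, and another large group builds the hair shaft and its inner root sheath. The keratins of the enamel organ include Krt5, Krt14 and Krt17, and Krt75 is known from both hair follicles and enamel.

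The genes stand in 2 clusters, as placed by GENCODE M21 on the mm10 assembly for 54 of the 55 (Krt85 was not matched). The type I cluster holds 27 genes at chr11:99232761-100269871, and the other holds 26 type II genes and the type I gene Krt18 at chr15:101347444-102032027. At P0 the genes of chromosome 11 in the table start no further than position 96862997, before the first keratin, and chromosome 15 is not covered, so keratins were not analysed here at P0.

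Values are RPKM (reads scaled to transcript length and to the mapped reads of the library) summed over the transcripts of a gene. They are listed for replicates 1, 2 and 3, and means are given ± SD (n = 3 per genotype and stage throughout). Since RPKM are per length, they allow levels to be compared between genes of one table, while levels at E17 and P5 come from different annotations. A log2 fold change is DKO against WT on the log2(RPKM + 1) scale with its standard error, tested with limma, and is followed by the same quantity after each library was scaled to its upper quartile ("scaled"). This second value is needed because the median of all genes tested stood at 0.25 at E17 (scaled -0.00) and at -0.25 at P5 (scaled -0.06). A gene is said to have risen or fallen only where the Benjamini-Hochberg adjusted p was under 0.05 in the same direction in both scalings.

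Libraries had 65953495 to 99967427 alignments at E17 and 39209676 to 72660832 at P5, and the steps between low values put 1 read on 1 kb of transcript at 0.0243 to 0.0362 RPKM at E17 and at 0.0325 to 0.0596 at P5. Hmgn2 averaged 339 RPKM in WT and 0.922 in DKO at E17, and 172 and 8.29 at P5. Hmgn1 averaged 128 in WT and 90.6 in DKO at E17, and 185 and 71.5 at P5, so reads were still assigned to it in the DKO libraries. Markers of other tissues were also present. Their counts are read against all genes tested, of which 6.61% rose and 3.07% fell at E17 and 7.35% rose and 30.8% fell at P5. The summed RPKM of 10 dental mesenchyme genes was 4450 to 4861 in WT and 2792 to 2983 in DKO at E17, with 4 of 10 tested having fallen, and 2071 to 2262 and 885 to 1272 at P5, with 6 of 10 having fallen. The 6 red cell genes summed to 5770 to 7228 in WT and 10410.1 to 21295 in DKO at E17, where 5 rose, and to 1348 to 1479 and 517 to 1185 at P5, where 5 of 5 tested fell. Odontoblast and osteoblast genes fell in 3 of 5 tested at E17 and 6 of 6 at P5, endothelial genes in 0 of 5 and 2 of 5, and macrophage genes in 0 of 5 and 3 of 5, where the 2 of 5 endothelial genes at P5 are near the share of all genes. In such bulk samples fewer cells of a type and less RNA per cell cannot be told apart, and the part of these tissues in the keratin values was not tested.

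At E17 most of the keratins that passed the test rose in DKO. By class, 3 of 4 stress-responsive suprabasal, 5 of 8 differentiation suprabasal and 2 of 5 simple keratins tested rose. Of the hair and inner root sheath keratins 1 of 2 tested rose, and of the basal keratins 0 of 3. With so few genes per class, a difference between classes was not tested. Of the 54 keratins, 22 reached 1 RPKM in at least 3 of the 6 libraries and were tested, and 11 of these rose, 1 fell and 10 passed in neither direction. Among all 13728 genes tested, 6.61% rose and 3.07% fell. As deposited alone 14 keratins were higher and 1 lower (56.3% and 3.3% of all genes), and scaled alone 11 were higher and 2 lower (6.61% and 8.03%). The groups did not overlap in 14 keratins, with DKO above WT in 13 and below in 1, where 60.9% of all genes had DKO above and 3.83% had DKO below. The median log2 fold change of the 22 keratins was 0.69 (scaled 0.47).

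**Figure D1:**
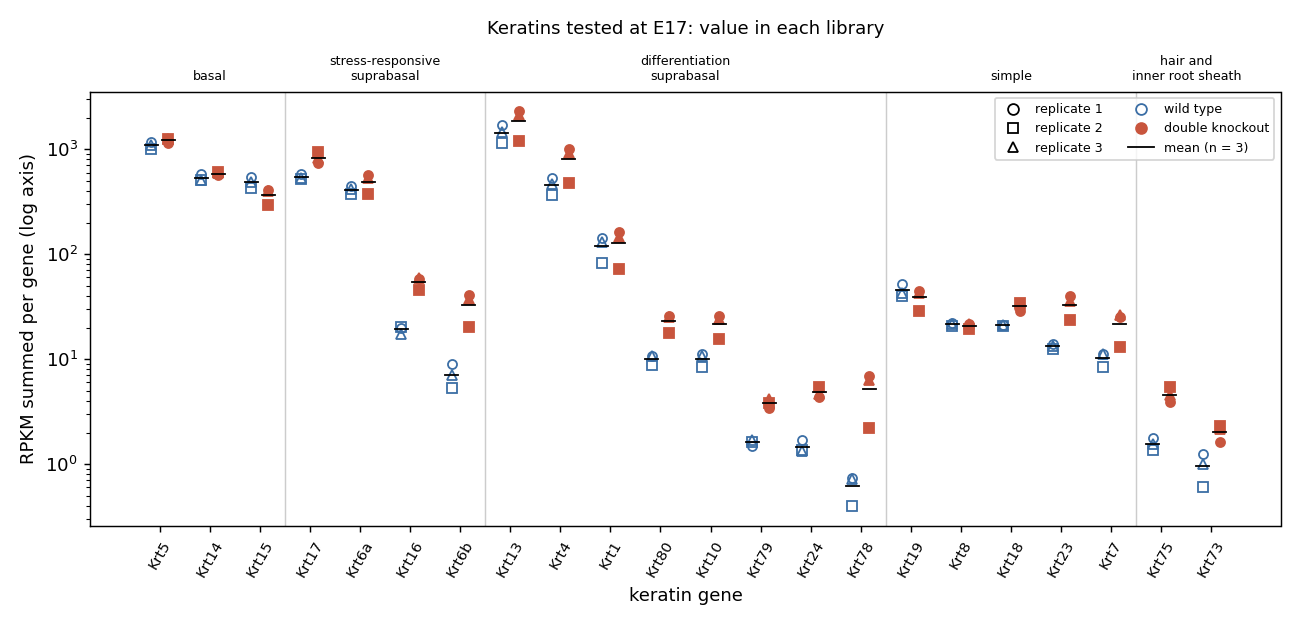
RPKM of the 22 keratins tested at E17 in each library, on a log axis, by keratin class; open blue symbols are WT, filled red symbols are DKO, symbol shape is the replicate number and bars are means of 3 libraries. DKO stands apart from WT in Krt16, Krt6b, Krt78, Krt24 and Krt75, among others. DKO replicate 2 lies lowest of the DKO libraries in Krt13, Krt4 and Krt78, and also in keratins of other classes such as Krt6b, Krt23 and Krt15.

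RefSeq promoter windows (GRCm38.p6) were at hand for 36 of the 55 keratins, with Krt13 in 2 windows. The 150 bases just upstream of the start are shown for the keratins that rose at E17 and whose RefSeq start lies at the start of their main transcript in the E17 table (Krt10, Krt24, Krt75, Krt78 and Krt79), followed by Krt5 and Krt13, abundant keratins that did not pass the test, for comparison. All 7 are read 5′ to 3′ on the minus strand and end at the base before the start, and capitals mark the letters TATAAA.
Krt10: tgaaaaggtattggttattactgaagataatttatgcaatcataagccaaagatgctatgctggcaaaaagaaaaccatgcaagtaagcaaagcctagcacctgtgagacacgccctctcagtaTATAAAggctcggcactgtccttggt
Krt24: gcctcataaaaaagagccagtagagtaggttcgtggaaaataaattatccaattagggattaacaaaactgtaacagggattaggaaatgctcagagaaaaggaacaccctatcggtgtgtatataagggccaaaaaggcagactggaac
Krt75: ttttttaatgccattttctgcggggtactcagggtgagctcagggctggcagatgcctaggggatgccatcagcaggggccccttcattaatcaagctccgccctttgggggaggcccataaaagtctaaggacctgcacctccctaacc
Krt78: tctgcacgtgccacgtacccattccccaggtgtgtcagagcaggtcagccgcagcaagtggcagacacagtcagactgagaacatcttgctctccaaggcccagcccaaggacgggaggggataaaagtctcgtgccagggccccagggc
Krt79: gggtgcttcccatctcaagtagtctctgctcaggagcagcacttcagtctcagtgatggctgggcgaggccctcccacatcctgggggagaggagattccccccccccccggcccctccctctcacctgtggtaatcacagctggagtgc
Krt5: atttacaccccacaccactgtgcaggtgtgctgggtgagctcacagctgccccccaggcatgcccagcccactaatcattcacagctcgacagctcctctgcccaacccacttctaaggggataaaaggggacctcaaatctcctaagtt
Krt13: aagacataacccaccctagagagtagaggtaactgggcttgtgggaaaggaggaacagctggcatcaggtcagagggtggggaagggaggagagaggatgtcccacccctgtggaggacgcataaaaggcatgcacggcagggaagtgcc
They lie at chr11:99389365-99389514 (Krt10), chr11:99285263-99285412 (Krt24), chr15:101573905-101574054 (Krt75), chr15:101954288-101954437 (Krt78), chr15:101940325-101940474 (Krt79), chr15:101712906-101713055 (Krt5) and chr11:100121567-100121716 (Krt13).

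Motifs were searched on both strands over 250 bases upstream of each start. The TATA box letters TATAAA were found in 17 of the 37 keratin windows (45.9%) and in 12.4% of all 32851 windows. Besides Krt10, with the letters starting 26 bases before the start, the windows with TATAAA were those of Krt12, Krt20, Krt76 and keratins of hair and inner root sheath. Letters of an AP-1 site (TGANTCA) were found in 2 windows (5.41%), both of Krt13, against 6.75% of all windows, and those of an AP-2 site (GCCNNNGGC) in 5 (13.5%) against 13.7%. Of the 7 sequences above, only that of Krt10 holds TATAAA in the bases shown. A match of letters is a description and not a measured site, and windows without one lack only these exact letters.

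The basal pair did not differ by the test at E17. Krt5 (chr15:101707070-101712898), the type II basal keratin, was at 1175, 995 and 1105 RPKM in WT and 1156, 1259 and 1243 in DKO. Its groups overlap, with a log2 fold change of 0.16 ± 0.10 (limma adjusted p = 0.176) and -0.13 scaled (adjusted p = 0.287), so its sign turns with the scaling. Krt14 (chr11:100203162-100207548), its type I partner, was at 581, 505 and 508 in WT and 569, 601 and 589 in DKO. The fold change was 0.14 ± 0.09 (adjusted p = 0.176) and scaled -0.15 (adjusted p = 0.174), with the groups overlapping. The ratio of Krt14 to Krt5 was 0.488 ± 0.0247 in WT and 0.481 ± 0.00964 in DKO.

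Krt15 (chr11:100131758-100135928), a further basal type I keratin known from epithelial progenitors, was the single keratin that fell at E17. It was at 549, 431 and 483 in WT and at 409.9, 291 and 403 in DKO, so that every DKO library was below every WT library. The log2 fold change was -0.42 ± 0.14 (limma adjusted p = 0.0343) and scaled -0.71 (adjusted p = 0.0258). The call was lost without WT replicate 1 (adjusted p = 0.0991), WT replicate 3 (0.0962), DKO replicate 2 (0.109) or DKO replicate 3 (0.065).

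Of the stress-responsive keratins, 3 of 4 rose at E17. Krt16 (chr11:100246091-100248902) was at 20.0, 20.3 and 17.5 in WT and 58.5, 45.6 and 59.2 in DKO, 2.82 times as high on average. Its log2 fold change was 1.44 ± 0.11 (limma adjusted p = 0.000119), scaled 1.16 (adjusted p = 0.00136), and its call held without any 1 library. Krt6b (chr15:101676023-101680287), a type II partner of Krt16, was at 8.96, 5.34 and 7.13 in WT and 40.7, 20.2 and 37.7 in DKO, 4.60 times as high. Its difference of 2.02 ± 0.25 on the log2 scale (adjusted p = 0.000957, scaled 1.75) was the highest of the 22 keratins with a pseudocount of 1, while with 0.1 Krt78 was higher (2.77 against 2.15).

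Krt17 (chr11:100256217-100261029), which marks several epithelial appendages and the enamel organ, was at 578, 522 and 531 in WT and 743, 933 and 818 in DKO. The groups were apart, 1.53 times as high in DKO, with a log2 fold change of 0.61 ± 0.10 (limma adjusted p = 0.00246) and 0.32 scaled (adjusted p = 0.0288). That call was lost without WT replicate 2 (adjusted p = 0.0766), WT replicate 3 (0.104), DKO replicate 2 (0.0843) or DKO replicate 3 (0.0816), and with the most abundant transcript alone (0.0529).

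Krt6a (chr15:101689910-101694307), the abundant neighbour of Krt6b, did not pass. It was at 445, 372 and 414 in WT and 565, 378 and 533 in DKO, with a log2 fold change of 0.24 ± 0.15 (limma adjusted p = 0.179), scaled -0.05. Krt6b was 0.0172 ± 0.00290 of Krt6a in WT and 0.0654 ± 0.0105 in DKO. The transcripts of Krt6a and Krt6b share 43.6% and 44.5% of their stretches of 50 bases exactly, so the split of reads between both genes is uncertain. Of the stretches of Krt16, 12.4% are also found in Krt14, as are 3.66% of those of Krt17. Of the stretches of Krt5, 6.98% are also found in Krt6a.

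The keratins of differentiating layers held 5 of the 11 that rose. 8 of 13 were tested, and Krt10, Krt24, Krt78, Krt79 and Krt80 rose while Krt1, Krt4 and Krt13 did not pass in both scalings. Krt13 (chr11:100117327-100121566), the type I keratin of mucosal suprabasal layers, had the highest level of all keratins at E17 and ranked 25 among all genes of the table by its mean in WT. It was at 1697, 1145 and 1474 in WT and 2297, 1188 and 2106 in DKO. DKO replicate 2 lay among the WT values, and the log2 fold change was 0.33 ± 0.24 (limma adjusted p = 0.255), scaled 0.04.

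Krt4 (chr15:101918535-101924735), the type II partner of Krt13, was at 536, 369 and 468 in WT and 1004, 475 and 921 in DKO. The same DKO library overlapped with WT, and the log2 fold change was 0.75 ± 0.26 (limma adjusted p = 0.0347), with 0.46 scaled (adjusted p = 0.323). Without DKO replicate 2 it passed in both scalings (adjusted p = 0.0239). The ratio of Krt13 to Krt4 within a library varied less: it was 3.17, 3.10 and 3.15 in WT and 2.29, 2.50 and 2.29 in DKO. All DKO ratios lay below all WT ratios.

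Krt1, the type II keratin of epidermal suprabasal layers, was at 144, 82.7 and 130.1 in WT and 162, 72.1 and 147 in DKO, with a log2 fold change of 0.05 ± 0.30 (limma adjusted p = 0.893), scaled -0.24. Its partner Krt10 (chr11:99385254-99389364) was at 11.2, 8.34 and 10.8 in WT and 25.6, 15.6 and 23.9 in DKO, 2.15 times as high. Krt10 rose, by 1.01 ± 0.17 (adjusted p = 0.00251) and scaled 0.74 (adjusted p = 0.0456), close to the threshold. Its call was lost without WT replicate 1, 2 or 3 (adjusted p = 0.0693, 0.119 and 0.107) and without DKO replicate 1 or 3 (0.0939 and 0.139), in limma without trend (0.0564) and with the most abundant transcript alone (0.074). The ratio of Krt10 to Krt1 was 0.0775, 0.101 and 0.0833 in WT and 0.158, 0.217 and 0.163 in DKO, so that the groups did not overlap.

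Krt80 (chr15:101347444-101370162), a type II keratin of differentiating cells, was at 10.7, 8.87 and 10.8 in WT and 26.0, 17.7 and 25.1 in DKO. Its log2 fold change was 1.09 ± 0.14 (limma adjusted p = 0.00107), scaled 0.82 (adjusted p = 0.0166), and the adjusted p was 0.0511 without WT replicate 3 and 0.0641 without DKO replicate 3. Krt78 (chr15:101946001-101954287), another type II suprabasal keratin, was at 0.731, 0.401 and 0.718 in WT and 6.98, 2.23 and 6.38 in DKO. It passed the filter on low values through the DKO libraries alone, so that its difference was in part set by the filter; the log2 fold change was 1.84 ± 0.30 (scaled 1.67), with adjusted p = 0.0595 without WT replicate 3 and 0.0624 without DKO replicate 3.

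Krt24 (chr11:99279959-99285262) was at 1.69, 1.38 and 1.34 in WT and 4.41, 5.44 and 4.71 in DKO, with a log2 fold change of 1.24 ± 0.09 (limma adjusted p = 0.000128, scaled 1.04). Krt79, a type II keratin known from the upper hair follicle, was at 1.5, 1.61 and 1.72 in WT and 3.44, 3.81 and 4.15 in DKO, with 0.88 ± 0.08 (adjusted p = 0.000318, scaled 0.67). Both were far below Krt13 in level, and in both all DKO libraries were above all WT libraries. Unlike Krt13, Krt4, Krt10, Krt78 and Krt80, neither had its lowest DKO value in replicate 2.

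The tissue label gives no other epithelium than that of the molar. Genes of cornifying oral epithelium and skin were nevertheless read at E17 and moved with the same libraries. The 18 genes of that list summed to 384, 246 and 347 in WT and 1598, 558 and 1398 in DKO. Of the 16 tested 10 rose and 0 fell (1 lower at an unadjusted limma p under 0.05), where 6.61% of all genes rose. Among those that rose was Lor, the main protein of the cornified envelope, at 10.04, 6.11 and 8.81 in WT and 135, 38.0 and 119.6 in DKO. Dsg1a went the other way without passing, at 29.5, 27.4 and 28.6 in WT and 26.6, 16.8 and 25.0 in DKO (-0.33, scaled -0.61). Of those that rose, Klk5, Rptn, Lce3e and Lce3f passed the filter on low values through the DKO libraries alone, so that their direction was in part set by the filter. Replicate 2 was the lowest in each genotype for this sum. It was also the lowest in each genotype for the differentiation keratins Krt1, Krt4, Krt10, Krt13, Krt78 and Krt80. The same held for Krt6a, Krt6b, Krt7, Krt8, Krt19, Krt23 and the basal keratin Krt15. No gene of the list was listed at 0 in all libraries, but Ivl was above 0 only in DKO replicate 1, at 0.0346. The part of such cells in the keratin values was not tested. All 8 dental epithelium genes, which include Krt5 and Krt14, passed the filter at both stages. At E17 5 of the 8 rose, among them Sp6 and Shh, where 6.61% of all genes rose. The sum of the 8, in which Krt5 and Krt14 hold the main part, was 1679 to 1957 in WT and 2087 to 2271 in DKO. At P5 0 of the 8 rose (0 at an unadjusted limma p under 0.05) and 2 fell, Shh (-1.25, scaled -1.03) and Epcam (-0.50, scaled -0.28). These 2 of 8 are near the share of all genes that fell (30.8%). The sum was 3911 to 4792 in WT and 3826 to 3937 in DKO.

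Of the simple epithelial keratins 2 of 5 tested rose. Krt18 (chr15:102028180-102032027), a type I keratin that stands at the end of the type II cluster, was at 21.0, 20.8 and 21.2 in WT and 28.8, 34.3 and 32.6 in DKO. It rose by 0.58 ± 0.07 (limma adjusted p = 0.00111, scaled 0.30, adjusted p = 0.00859) and kept its call without any 1 library. Its partner Krt8 (chr15:101996698-102004482) was at 21.9, 20.5 and 21.9 in WT and 21.7, 19.5 and 21.5 in DKO, and the difference was -0.04 ± 0.07 (adjusted p = 0.656) and scaled -0.31 (adjusted p = 0.0295). The ratio of Krt18 to Krt8 was 0.956, 1.01 and 0.971 in WT and 1.33, 1.76 and 1.51 in DKO.

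Krt23, a type I keratin, was at 14.1, 12.5 and 13.4 in WT and 39.6, 23.7 and 35.8 in DKO. It rose by 1.22 ± 0.16 (limma adjusted p = 0.0012, scaled 0.94), and the adjusted p was 0.0664 without WT replicate 3 and 0.0657 without DKO replicate 3. Krt7, a type II keratin of simple and glandular epithelia, was at 11.3, 8.43 and 11.3 in WT and 25.0, 13 and 26.4 in DKO, with 0.93 ± 0.23 (adjusted p = 0.00896) but scaled 0.66 (adjusted p = 0.126). Without DKO replicate 2 it passed (adjusted p = 0.00472). Krt19 was at 52.3, 40.4 and 42.9 in WT and 45.1, 28.7 and 43.1 in DKO, and the groups overlapped (-0.23 ± 0.16, adjusted p = 0.248, scaled -0.51). Of genes of other cells that use simple keratins, the Merkel cell factors Atoh1 and Pou4f3 were at most at 0.127 and 0.0305. The 5 Merkel cell genes summed to 22.7 to 23.2 in WT and 16.2 to 19.0 in DKO, and 1 of 2 tested (Sox2) fell. No salivary gland gene reached the filter, with sums of 0.177 to 0.227 in WT and 0.317 to 0.429 in DKO, and the part of either cell type in these values was not tested.

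Of 24 hair and inner root sheath keratins 2 were tested at E17, both type II. Krt75 (chr15:101563345-101573904) was at 1.77, 1.35 and 1.54 in WT and 3.88, 5.4 and 4.52 in DKO and rose by 1.13 ± 0.11 (limma adjusted p = 0.000372, scaled 0.92). Krt73, of the inner root sheath, was at 1.25, 0.603 and 1.01 in WT and 1.63, 2.31 and 2.16 in DKO, with 0.64 ± 0.14 (adjusted p = 0.00564) and scaled 0.47 (adjusted p = 0.0591), and it passed without WT replicate 1 (0.0376). Of the hair follicle genes outside the keratins 3 of 5 tested rose (Tchh, Msx2 and S100a3), while Hoxc13, a factor of the hair shaft, was at most at 0.0293, and Foxn1 overlapped between the groups. The 8 genes of that list summed to 15.8 to 19.0 in WT and 38.9 to 45.8 in DKO, and the part of hair follicle cells was not tested.

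The other 32 keratins at E17 were below the filter, and no value of theirs was above 1.55. They were Krt2, Krt9, Krt12, Krt20, Krt25, Krt26, Krt27, Krt28, Krt31, Krt32, Krt33a, Krt33b, Krt34, Krt35, Krt36, Krt39, Krt40, Krt42, Krt71, Krt72, Krt74, Krt76, Krt77, Krt81, Krt82, Krt83, Krt84, Krt86, Krt87, Krt88, Krt90 and Krt222. Krt42 was at 0.169, 0.183 and 0.209 in WT and 0.474, 0.814 and 0.527 in DKO. Krt90 was at 0.152, 0.125 and 0.127 in WT and 0.748, 0.306 and 0.740 in DKO. Neither was tested with the filter, and all values of both were under 1 RPKM. With all 32532 genes tested without the filter, 5 keratins rose (Krt16, Krt18, Krt24, Krt75 and Krt79) and 0 fell in limma, with 15 higher and 2 lower at an unadjusted p under 0.05 in both scalings. The share of all genes that passed without the filter is not given here, so these counts cannot be read against it.

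**Figure D2:**
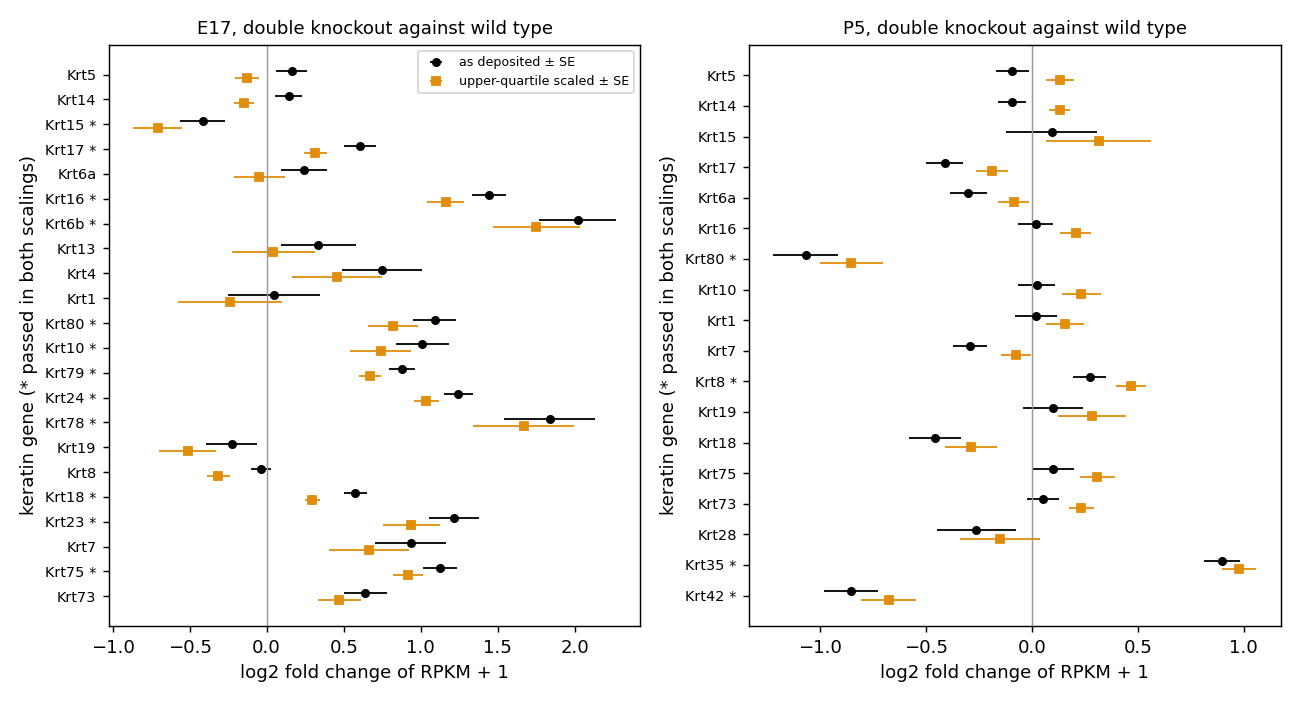
Log2 fold change of RPKM + 1, DKO against WT, of each keratin tested at E17 (left) and at P5 (right), with standard errors; black circles are the deposited values, orange squares the values after upper-quartile scaling, and an asterisk marks keratins past the threshold in both. At E17 Krt6b stands furthest right at 2.02, and at P5 Krt80 and Krt42 stand left at -1.07 and -0.85.

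At P5 the basal keratins and Krt17 made up nearly the whole keratin signal, and few keratins differed between genotypes. Of 50 keratins 18 were tested, and 2 rose (Krt8 and Krt35), 2 fell (Krt80 and Krt42) and 14 passed in neither direction. Of these Krt35 passed the filter on low values through the DKO libraries alone. Among all 11423 genes tested 7.35% rose and 30.8% fell. As deposited alone 2 were higher and 6 lower (7.36% and 58.2% of all genes), and scaled alone 5 were higher and 2 lower (19.4% and 30.8%). The groups did not overlap in 8 keratins, with DKO above in 2 and below in 6, against 8.66% and 61.8% of all genes. The median log2 fold change of the 18 keratins was -0.04 (scaled 0.14).

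**Figure D3:**
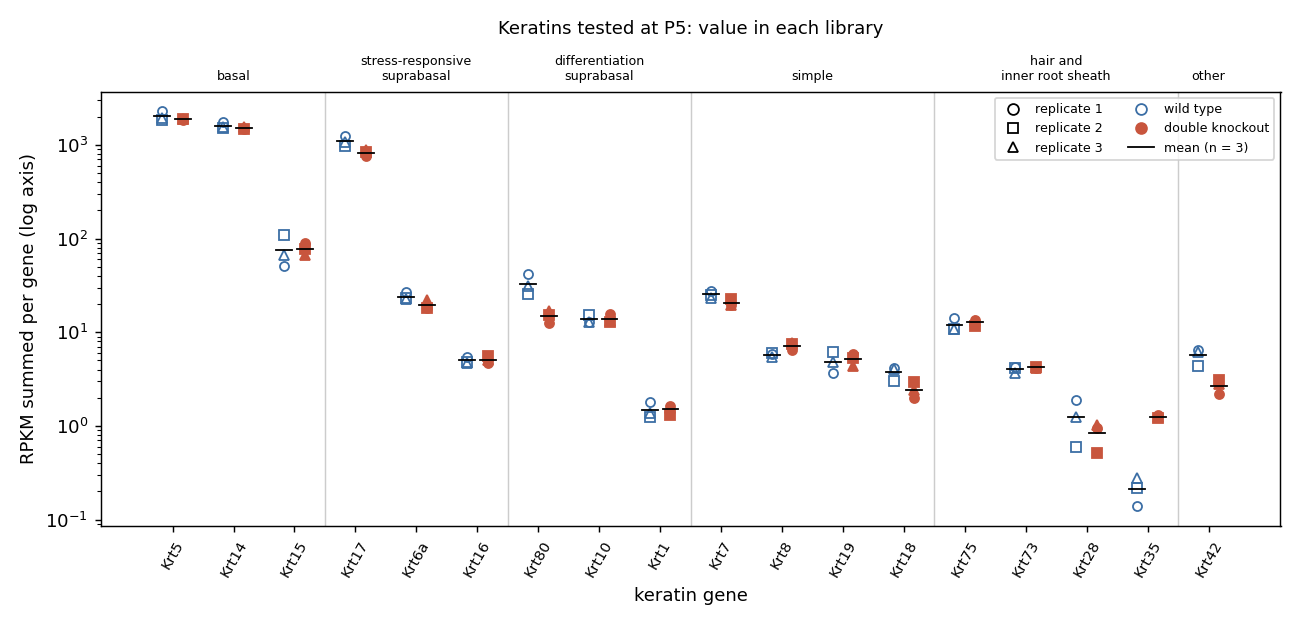
RPKM of the 18 keratins tested at P5 in each library, on a log axis, by keratin class; open blue symbols are WT, filled red symbols are DKO, symbol shape is the replicate number and bars are means of 3 libraries. Krt5, Krt14 and Krt17 stand above all others, and DKO lies apart from WT in Krt80 and Krt42 (below) and in Krt35 and Krt8 (above).

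Krt5 was at 2284, 1829.5 and 1956 in WT and 1863, 1910.0 and 1894 in DKO at P5 and ranked 8 among all genes by its WT mean. Krt14 was at 1759.7, 1522 and 1544 in WT and 1484, 1481 and 1549 in DKO, at rank 11. Neither differed by the test, and both turned sign with the scaling: the log2 fold change was -0.09 ± 0.08 for Krt5 (limma adjusted p = 0.308, scaled 0.13) and -0.09 ± 0.07 for Krt14 (adjusted p = 0.231, scaled 0.13). The ratio of Krt14 to Krt5 was 0.797 ± 0.0314 in WT and 0.797 ± 0.0211 in DKO. Krt15 was at 51.1, 110.1 and 66.9 in WT and 88.9, 78.1 and 66.1 in DKO, with WT replicate 2 the highest; the change of 0.09 ± 0.22 (adjusted p = 0.714, scaled 0.32) did not pass. Without WT replicate 2 Krt15 passed as higher in DKO (adjusted p = 0.0139).

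Krt17, at rank 30, was at 1256, 981 and 1068 in WT and 769, 831 and 873 in DKO. All DKO libraries were below WT, but the log2 fold change of -0.41 ± 0.09 (limma adjusted p = 0.00189) came to -0.19 after scaling (adjusted p = 0.0645), so it was not called. It passed as lower without WT replicate 2 (adjusted p = 0.00992). The ratio of Krt17 to Krt5 was 0.550, 0.536 and 0.546 in WT and 0.413, 0.435 and 0.461 in DKO, where at E17 it had been 0.492, 0.524 and 0.480 in WT and 0.642, 0.741 and 0.658 in DKO.

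The other stress-responsive keratins were low at P5. Krt6a was at 26.6, 23.2 and 22.4 in WT and 18.1, 18.2 and 21.9 in DKO, with -0.30 ± 0.09 (limma adjusted p = 0.0115) and scaled -0.08 (adjusted p = 0.361). Krt16 was at 5.51, 4.78 and 4.74 in WT and 4.69, 5.56 and 5.01 in DKO, with 0.02 ± 0.08 (adjusted p = 0.854) and scaled 0.21 (adjusted p = 0.0386). Krt6b was below the filter, at most at 0.469. Krt16 and Krt6a share stretches of 50 bases with Krt14 and Krt5, which averaged 1608 and 2023 RPKM in WT at P5. The part of such shared reads in these low values was not tested.

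Among the keratins of differentiating layers Krt80 fell at P5. It was at 41.6, 25.3 and 30.9 in WT and 12.5, 15.3 and 16.8 in DKO, 0.455 of the WT mean, with a log2 fold change of -1.07 ± 0.15 (limma adjusted p = 0.00019) and scaled -0.85 (adjusted p = 0.00166). No DKO library reached the lowest WT library, and the call held without any 1 library. Krt10 was at 13, 15.3 and 12.9 in WT and 15.7, 12.9 and 13.3 in DKO (0.02 ± 0.09, adjusted p = 0.83, scaled 0.23). Krt1 was at 1.79, 1.26 and 1.37 in WT and 1.63, 1.31 and 1.57 in DKO (0.02 ± 0.10, adjusted p = 0.87, scaled 0.16), so that the groups of this pair overlapped.

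Krt4, Krt13 and Krt24 were under 1 RPKM in all DKO libraries at P5, and Krt13 and Krt24 were above it in some WT libraries. Krt13 was at 0.121, 7.56 and 3.05 in WT and 0.646, 0.397 and 0.432 in DKO, and Krt24 at 0.0784, 3.11 and 0.838 in WT and 0.272, 0.289 and 0.21 in DKO. WT replicate 2 was the highest in both, and also in Krt4 at 0.695 and in Krt15 at 110.1. The cornifying gene Krtdap was at 1.04, 3.29 and 1.76 in WT, highest in the same library, and at 1.42, 0.986 and 2.01 in DKO. The other cornifying genes tested did not share this peak: in WT, Lor, Dsg1a and Tgm1 were lowest in that library, and Sbsn was intermediate. Of those below the filter, Sprr1a, Sprr3, Tgm3, Rptn and Lce3f had their highest WT value there, and Cnfn, Crct1 and Cdsn did not. The 13 cornifying genes in the table summed to 23.2 to 24.7 in WT and 16.3 to 20.9 in DKO, and 2 of 5 tested fell, where 30.8% of all genes fell.

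Of the simple keratins Krt8 rose at P5 and its partner Krt18 did not follow. Krt8 was at 5.91, 5.95 and 5.47 in WT and 6.46, 7.57 and 7.59 in DKO, with a log2 fold change of 0.27 ± 0.08 (limma adjusted p = 0.0101) and scaled 0.47 (adjusted p = 0.000781). Krt18 was at 4.17, 2.99 and 4 in WT and 1.99, 2.93 and 2.40 in DKO, with -0.46 ± 0.12 (adjusted p = 0.00734) and scaled -0.29 (adjusted p = 0.0804). It passed as lower without WT replicate 2 (adjusted p = 0.023) or DKO replicate 2 (0.0293). The ratio of Krt18 to Krt8 was 0.706, 0.502 and 0.732 in WT and 0.307, 0.387 and 0.316 in DKO, below WT in every library, whereas at E17 it was above WT in every library.

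Krt7 was at 27.9, 24.8 and 23.3 in WT and 19.6, 22.5 and 19.4 in DKO at P5, with -0.29 ± 0.08 (limma adjusted p = 0.00896) and scaled -0.08 (adjusted p = 0.396). Krt19 was at 3.63, 6.10 and 4.79 in WT and 5.90, 5.29 and 4.40 in DKO, with overlapping groups (0.10 ± 0.14, adjusted p = 0.546). Krt20 and Krt23 were below the filter, and Krt23 was at most at 0.454.

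**Figure D4:**
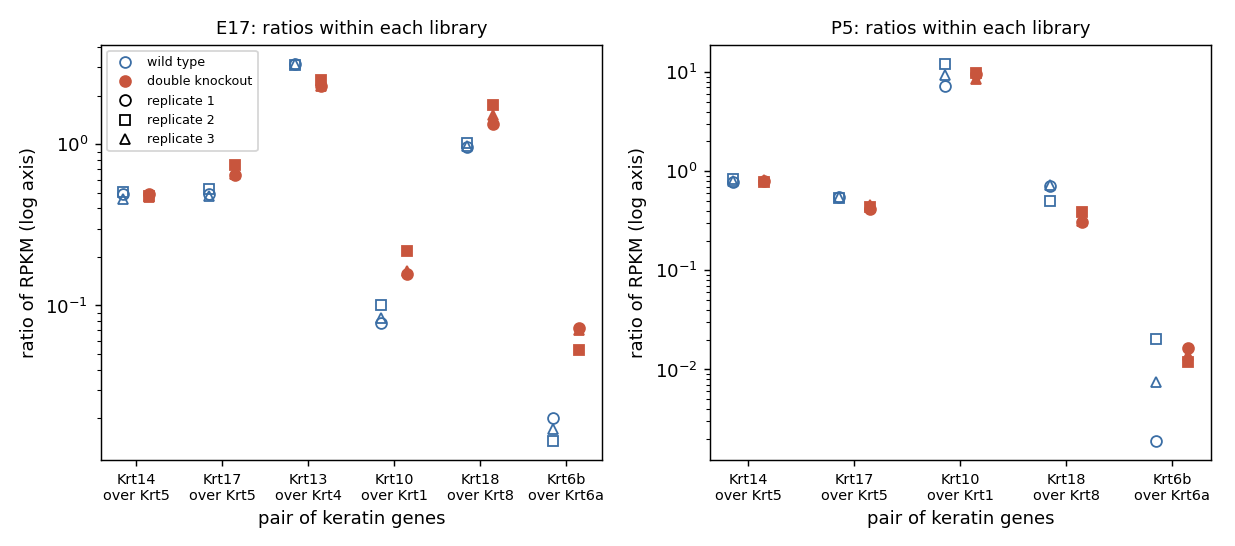
Ratio of RPKM of pairs of keratins within each library at E17 (left) and P5 (right), on log axes; open blue symbols are WT, filled red symbols are DKO and shape is the replicate number. The ratio of Krt18 to Krt8 lies above WT in DKO at E17 and below it at P5, and the ratio of Krt14 to Krt5 overlaps between genotypes at both stages.

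Among hair and inner root sheath keratins 4 of 20 were tested at P5. Krt35 (chr11:100092193-100096241), a type I keratin of the hair shaft, was at 0.14, 0.215 and 0.279 in WT and 1.32, 1.21 and 1.24 in DKO, and it rose by 0.90 ± 0.09 (limma adjusted p = 2.02e-05), scaled 0.98 (adjusted p = 4.47e-05). It passed the filter through the DKO libraries alone, so that its difference was in part set by the filter, and its level stayed low. Krt75 was at 14.2, 10.9 and 10.9 in WT and 13.6, 11.7 and 13.3 in DKO (0.10 ± 0.10, adjusted p = 0.388, scaled 0.31, adjusted p = 0.0139), and it passed without WT replicate 1 (0.0326). Krt73 was at 4.21, 4.17 and 3.69 in WT and 4.17, 4.27 and 4.18 in DKO (0.05 ± 0.07, adjusted p = 0.537, scaled 0.23, adjusted p = 0.0112).

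Krt28, a type I inner root sheath keratin, was at 1.88, 0.597 and 1.25 in WT and 0.959, 0.519 and 1.02 in DKO (-0.26 ± 0.19, limma adjusted p = 0.236, scaled -0.15). Of the other hair follicle genes 1 of 4 tested rose: Tchh, trichohyalin, at 15.2, 16.0 and 14.4 in WT and 21.4, 22.5 and 24.4 in DKO. Hoxc13 was at 0.396 to 0.753 and did not reach the filter, and the 8 genes summed to 81.8 to 91.3 in WT and 85.5 to 87.7 in DKO. In the group of other keratins Krt42 (chr11:100262882-100269871), a type I keratin known from the nail, fell: it was at 6.49, 4.39 and 6.20 in WT and 2.21, 3.07 and 2.78 in DKO, with -0.85 ± 0.13 (adjusted p = 0.000265) and scaled -0.68 (adjusted p = 0.00276).

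The 32 keratins below the filter at P5 were Krt2, Krt4, Krt6b, Krt9, Krt12, Krt13, Krt20, Krt23, Krt24, Krt25, Krt26, Krt27, Krt31, Krt33a, Krt36, Krt39, Krt71, Krt74, Krt76, Krt77, Krt78, Krt79, Krt81, Krt82, Krt83, Krt84, Krt85, Krt86, Krt87, Krt88, Krt90 and Krt222. The highest value among them was the 7.56 of Krt13. Krt27 was at 1.76, 0.995 and 1.57 in WT and 0.667, 0.912 and 0.764 in DKO, and Krt82 at 0.622, 0.442 and 0.764 in WT and 0.313, 0.340 and 0.355 in DKO. With all 19450 genes tested without the filter, Krt9, Krt71, Krt8 and Krt35 rose and Krt222, Krt42 and Krt80 fell. Of these Krt71, an inner root sheath keratin, was at 0.0444, 0.0852 and 0.0245 in WT and 0.373, 0.383 and 0.223 in DKO, and Krt222 at 0.657, 0.902 and 0.557 in WT and 0.167, 0.245 and 0.193 in DKO. The share of all genes that passed without the filter is not given at P5 either.

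The genotype effect itself differed between the stages for 6 of the 15 keratins tested at both. The effect at P5 was below that at E17 in 5 and above it in 1, where 27.5% and 2.61% of the 11049 genes tested at both stages were called. The 5 of 15 with a lower effect at P5 are near the share of all genes. Krt80 had the widest gap, from 1.09 at E17 to -1.07 at P5, a difference of -2.16 ± 0.21 (adjusted p = 8.03e-08; scaled -1.67). Krt16 differed by -1.42 ± 0.14 (adjusted p = 1.56e-07; scaled -0.96) and Krt17 by -1.02 ± 0.14 (adjusted p = 3.28e-06; scaled -0.50). Krt18 differed by -1.03 ± 0.14 (adjusted p = 6.77e-06; scaled -0.59) and Krt75 by -1.02 ± 0.15 (adjusted p = 7.86e-06; scaled -0.61). Krt8 went the other way, with a difference of 0.31 ± 0.10 (adjusted p = 0.0101; scaled 0.78). These p-values come from the limma standard errors of both stages, and Krt5, Krt14 and Krt15 did not pass in both scalings.

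As sums, the keratins held 1.05% to 1.26% of all RPKM of a WT library at E17 and 1.06% to 1.48% in DKO, and 1.03% to 1.23% in WT and 0.847% to 0.939% in DKO at P5. At E17 basal keratins made up 39.1%, 42.2% and 39.7% of the keratin sum in WT and 29.5%, 39.5% and 31.5% in DKO. Keratins of differentiating layers made up 40.8%, 35.4% and 39.7% in WT and 48.7%, 32.7% and 45.7% in DKO. DKO replicate 2 had a basal share inside the WT range and the lowest differentiation share of all. DKO replicates 1 and 3 had a lower basal share and a higher differentiation share than any WT library. The basal sum itself overlapped between genotypes, at 2305, 1931 and 2097 RPKM in WT and 2135, 2151 and 2235 in DKO. The stress-responsive share was 17.9%, 20.1% and 18.4% in WT and 19.4%, 25.3% and 20.4% in DKO.

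At P5 the basal share was 74.3%, 75.4% and 74.7% in WT and 79.5%, 78.5% and 77.9% in DKO. The stress-responsive share, nearly all of it Krt17, was 23.4%, 22.0% and 22.9% in WT and 18.3%, 19.4% and 20.0% in DKO. Neither share overlapped between the genotypes. Together these shares hold nearly the whole keratin sum, so 1 is higher where the other is lower. The basal sum overlapped, at 3461 to 4095 RPKM in WT and 3435 to 3510 in DKO. The stress-responsive sum did not, at 1010 to 1288 in WT and 792 to 900 in DKO as deposited. Krt17 was not called in both scalings at P5. Differentiation keratins held 1.09% ± 0.0830 in WT and 0.728% ± 0.0197 in DKO, beside 38.6% ± 2.89 and 42.4% ± 8.49 at E17. The summed type I keratins were 1.46 ± 0.0348 times the type II keratins in WT and 1.39 ± 0.00726 times in DKO at E17, and 1.33 ± 0.0458 and 1.24 ± 0.0301 times at P5. No test was made of these sums.

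**Figure D5:**
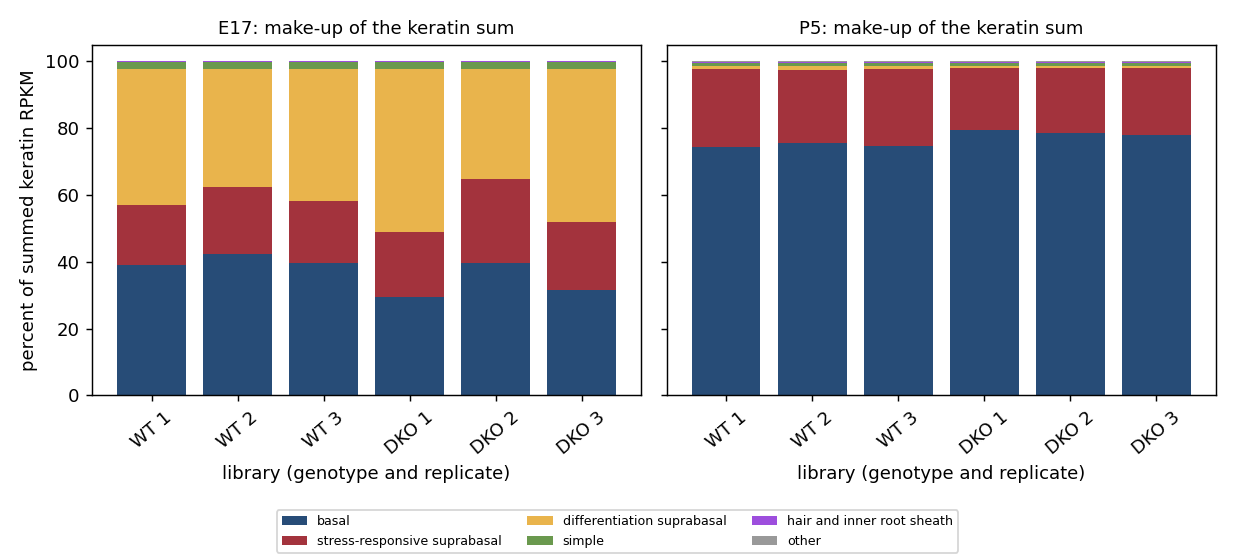
Share of each keratin class in the summed keratin RPKM of each library, in percent, at E17 and P5. The basal share lies between 29.5% and 42.2% at E17 and between 74.3% and 79.5% at P5, and the differentiation share between 32.7% and 48.7% at E17.

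Genes that work with keratin filaments were counted in the same fits. Of 19 filament partners tested at E17, which anchor keratins to desmosomes and hemidesmosomes, 3 rose and 0 fell (1 lower at an unadjusted limma p under 0.05): the desmosomal cadherins Dsc3 (0.77, scaled 0.49) and Dsg2 (0.71, scaled 0.44) and the integrin subunit Itga6 (0.60, scaled 0.32). At P5 2 of 18 rose, Perp (0.27, scaled 0.49) and the hemidesmosomal collagen Col17a1 (0.25, scaled 0.47), and 4 fell, Dst (-0.54, scaled -0.32), Dsc2 (-0.51, scaled -0.31), Tchp (-0.47, scaled -0.29) and plakoglobin Jup (-0.42, scaled -0.21). The values are log2 fold changes. Among all genes 6.61% rose and 3.07% fell at E17, and 7.35% rose and 30.8% fell at P5. The counts of filament partners at P5 are near or below these shares.

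Of transcription factors known to act at keratin genes, 9 of 25 tested rose at E17 and 0 fell (0 lower at an unadjusted limma p under 0.05). Among all genes 6.61% rose and 3.07% fell. The 4 with the smallest p were Msx2 (1.70, scaled 1.44), Sp6 (1.79, scaled 1.51), Trp63, the p63 gene that governs basal keratins (0.76, scaled 0.48), and Satb1 (0.74, scaled 0.50). At P5 2 of 20 rose, Nfe2l2 (0.58, scaled 0.79) and Gli2 (0.24, scaled 0.44), and 2 fell, Cebpb (-0.53, scaled -0.32) and Grhl2 (-0.52, scaled -0.35). The 2 that rose are near the share of all genes (7.35%), and the 2 that fell are below it (30.8%).

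Among intermediate filament genes outside the keratins, 1 of 9 tested rose at E17, the nuclear lamin Lmnb1 (0.49, scaled 0.20), and 1 fell, the muscle filament gene Des (-0.71, scaled -0.99). The shares of all genes were 6.61% and 3.07% at E17, and 7.35% and 30.8% at P5. At P5 3 of 5 fell and 0 rose (0 higher at an unadjusted limma p under 0.05): Lmnb2 (-0.91, scaled -0.73), Vim, the filament of mesenchymal cells (-0.92, scaled -0.70), and Nes (-0.74, scaled -0.53). Des moved with the muscle genes, which summed to 776, 333 and 647 in WT and 318, 429 and 384 in DKO at E17 and of which 3 of 6 fell, and Vim is itself 1 of the 10 mesenchyme genes.

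By cluster, 5 of 9 tested keratins on chromosome 11 rose at E17 and 1 fell, and 6 of 13 on chromosome 15 rose and 0 fell (0 lower at an unadjusted limma p under 0.05). Among all genes 6.61% rose and 3.07% fell. At P5 each cluster had 9 keratins tested, with 1 higher and 1 lower. The 1 higher is near the share of all genes (7.35%), and the 1 lower is below it (30.8%). Of the neighbours Krt6a and Krt6b only Krt6b passed, and whether the pair differed from each other was not tested.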

How the data were processed

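RNA-seq of 18 libraries of mouse molar dental epithelium was used. Per the submitters' processing notes, the authors used Partek on mm10, and the aligner, the annotation, the counting of strand and the treatment of multiply mapped reads are not stated in the labels or headers. The deposited values are RPKM per transcript; no source names the unit, and it was read from the values, of which 87.3% to 88.2% (E17) and 72.9% to 74.4% (P5) of the low ones were whole reads within 0.1. The deposited alignment counts per library were used as depth only. RPKM were summed per symbol, and 88 keratin transcripts at E17 and 56 at P5 entered.

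Genes with at least 1 RPKM in at least 3 of 6 libraries were tested per stage on log2(RPKM + 1) with limma 3.58.1 (empirical Bayes with trend, two-sided) in R 4.3.3, adjusted by Benjamini-Hochberg over all genes tested, on deposited and upper-quartile scaled values. The pseudocount shrinks fold changes of low genes. The difference between stages used Satterthwaite degrees of freedom. Scripts were tested on simulated data. The keratins, their classes and the other lists were chosen with earlier results of these data known. Every keratin that passed the filter is named with its values, others by number and range, and of other lists up to 4 genes per direction with the smallest p. Some keratins and marker genes below these limits were named after their values were seen. The adjusted p given for an alternative is the larger of both scalings. Alternatives were each scaling alone, median-of-ratios scaling, another pseudocount (0.1), no filter, no trend, a minimum log2 fold change of 1, the most abundant transcript, the replicate number as a block, and each library left out.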

Additional observations from a re-analysis of the deposited data

Results flagged for a closer look

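The effect of the genotype differed between E17 and P5 by a test of the difference (log2 fold change at P5 minus that at E17, from the limma fits, adjusted over 11049 genes) in 6 keratins. The difference was -2.16 for Krt80 (scaled -1.67), -1.42 for Krt16 (scaled -0.96) and -1.03 for Krt18 (scaled -0.59). It was -1.02 for Krt17 (scaled -0.50) and -1.02 for Krt75 (scaled -0.61). These keratins all rose at E17. For Krt8 the difference was 0.31 (scaled 0.78). At P5 Krt80 fell, Krt8 rose, and Krt16, Krt17, Krt18 and Krt75 did not pass in both scalings. Of all genes tested at both stages 27.5% had a lower effect at P5 and 2.61% a higher one. The count of keratins with a lower effect at P5 is near the share of all genes. The tables of the stages were made with different annotations.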

How the results depend on the processing

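With upper-quartile scaling alone 2 keratins were lower at E17 and 5 higher at P5, and 5 had a higher effect at P5; with the deposited values alone 6 were lower at P5 and 9 had a lower effect there. Without the filter 5 were higher and 0 lower at E17, 4 were higher at P5, and 4 had a higher and 12 a lower effect at P5. Shares of all genes are given only for both scalings together and, within a stage, for each scaling alone. Counts under the other alternatives cannot be read against such a share. With a log2 fold change of 1 or more required as well, 4 rose and 0 fell at E17, and 0 rose and 0 fell at P5. With a library left out, 6 to 12 rose and 0 to 1 fell at E17, and 2 to 4 fell at P5. At E17 6 of 12 calls were kept without any 1 library (Krt6b, Krt16, Krt18, Krt24, Krt75 and Krt79), and at P5 4 of 4.

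With a library left out, the share of a class (DKO minus WT, percentage points of the keratin sum, compared by group medians) at E17 ranged from -9.44 to -4.18 for basal, 1.18 to 4.50 for stress-responsive, -0.52 to 8.12 for differentiation and 0.0404 to 0.0732 for hair keratins, and at P5 from -0.383 to -0.308 for differentiation keratins. The log2 fold changes of uncalled keratins turned sign with scaling at E17 in Krt1 (-0.239), Krt14 (-0.147), Krt5 (-0.129) and Krt6a (-0.0469) and at P5 in Krt14 (0.132) and Krt5 (0.132). With a library left out they ranged at E17 from -0.191 to 0.412 in Krt1 and -0.0652 to 0.0110 in Krt8, and at P5 from -0.0576 to 0.0995 in Krt10, -0.153 to 0.393 in Krt15, -0.0562 to 0.252 in Krt19, -0.0437 to 0.110 in Krt1 and -0.0364 to 0.0772 in Krt16. Over all single keratins and alternatives, 515 values kept their side and direction, 42 lost the threshold, 20 gained it and 23 turned. The cause was not tested.

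With the replicate number as a block 11 keratins rose and 1 fell at E17, and 2 rose and 2 fell at P5; Krt17 was lost at E17 (adjusted p = 0.0641) and Krt7 gained (0.0222). Between same-numbered libraries the deviations from the group means had a correlation of 0.220 for replicate 2 at E17. The others were at -0.0220 and -0.0215 at E17 and at -0.222, -0.0724 and 0.0442 at P5. Differently numbered libraries reached similar values, such as 0.212 (WT replicate 1 with DKO replicate 3 at E17) and 0.249 (WT replicate 2 with DKO replicate 1 at P5). The numbers were therefore not taken to pair the samples. Keratins below the filter were tested only in the fits without it. Many of them rest on few reads, but not all, since Krt13 reached 7.56 RPKM in WT replicate 2 at P5.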
